A study of Rattus norvegicus with 6 samples.

Results

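Desmin, dystrophin and the proteins around them join the contractile filaments of a muscle cell to its membrane. Desmin is the intermediate filament of muscle cells, and vimentin is the intermediate filament of mesenchymal and many embryonic cells. Dystrophin links actin under the membrane to dystroglycan, which binds laminin outside the cell, and the sarcoglycans are membrane proteins that accompany dystroglycan. The small muscle protein encoded by Smpx is found where the filaments attach to the membrane of striated muscle. The genes described here are Des, Vim, Dmd, Dag1 (dystroglycan), Sgca, Sgcb and Sgcd (α-, β- and δ-sarcoglycan) and Smpx. They were taken by name from the array, with every probe of each gene, which gave 8 genes and 11 probes of 22094 gene names and 30367 probes.

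The study asked how the heart primordium, the tissue that becomes the embryonic heart, differs before and after the first heartbeat. Heart primordia of untreated embryos of Wister rats (spelled so in the labels) on embryonic day 10 (E10) were placed in a pre-heartbeat group, with a flat central shape, and a post-heartbeat group, with a raised central shape. Each group had 3 samples, and the cyanine 3 labeled RNA of each sample was hybridized to its own 1-color rat array. No genetic alteration is named for either group, and the sources used here do not say whether an array sample held 1 primordium or several, nor which samples shared a litter, so that p measures the spread between these samples.

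Values are the log2 of the processed signal less the log2 of the 75th percentile of the array, so that 0 is the 75th percentile. The 19299 probes that were well above background throughout the 3 arrays of either group were tested. The arrays lay on 2 slides, which separated the arrays along the first principal component (60.2% of the variance), while the second (16.6%) separated the groups. One slide held pre-heartbeat sample 1 and post-heartbeat samples 1 and 2, and the other held pre-heartbeat samples 2 and 3 and post-heartbeat sample 3. Changes of the members are therefore given from limma without a block and from limma with the slide as a block, called the slide-blocked fit. All 7 heart muscle markers checked were well above background on all 6 arrays.

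The array read dystrophin at 3 places on the plus strand of chromosome X (rn4), and their 60-base probes are shown because they gave different answers for 1 gene. In the order of the gene, they lie at chrX:71193304-71193363, chrX:71599409-71599468 and chrX:71670996-71671055, so that probes 1 and 3 start 478 kb apart.
Dmd, probe 1: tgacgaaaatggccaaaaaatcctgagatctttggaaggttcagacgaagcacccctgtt
Dmd, probe 2 (annotated as Dp71c): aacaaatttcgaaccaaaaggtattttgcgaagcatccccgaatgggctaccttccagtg
Dmd, probe 3 (annotated as Dp71a): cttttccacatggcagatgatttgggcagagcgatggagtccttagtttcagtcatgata
Dp71 is a short dystrophin made from a promoter late in the gene, and it lacks the actin-binding start of the long muscle form. Probe 3 was well above background on all 6 arrays, and probes 1 and 2 were not well above background on any. The annotation names a transcript for each probe, and whether a probe also reads other forms of dystrophin was not tested.

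The 250 bases before the start of Des, Sgca and Smpx are shown, with those of Vim as a related gene whose groups overlapped. They are RefSeq sequences of the GRCr8 build, written in the direction of the gene, with the E-box CANNTG (the letters bound by basic helix-loop-helix factors) and the MEF2 motif on either strand in capitals.
Des, chr9:84299376-84299625, plus strand: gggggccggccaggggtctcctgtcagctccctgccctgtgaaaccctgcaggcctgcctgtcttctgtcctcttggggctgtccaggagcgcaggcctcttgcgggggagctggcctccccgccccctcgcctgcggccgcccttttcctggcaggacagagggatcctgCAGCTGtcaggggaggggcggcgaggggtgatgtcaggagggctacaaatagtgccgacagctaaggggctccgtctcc
Sgca, chr10:80416076-80416325, minus strand: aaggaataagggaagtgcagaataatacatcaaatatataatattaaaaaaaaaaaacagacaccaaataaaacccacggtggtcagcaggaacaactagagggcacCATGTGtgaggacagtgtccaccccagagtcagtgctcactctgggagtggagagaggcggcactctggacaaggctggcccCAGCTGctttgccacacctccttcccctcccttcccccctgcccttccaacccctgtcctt
Smpx, chrX:41107138-41107387, minus strand: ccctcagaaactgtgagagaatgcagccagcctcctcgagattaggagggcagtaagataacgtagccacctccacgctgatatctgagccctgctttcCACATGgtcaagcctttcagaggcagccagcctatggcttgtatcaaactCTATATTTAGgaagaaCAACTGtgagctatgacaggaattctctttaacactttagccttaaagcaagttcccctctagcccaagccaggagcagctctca
Vim, chr17:81577011-81577260, plus strand: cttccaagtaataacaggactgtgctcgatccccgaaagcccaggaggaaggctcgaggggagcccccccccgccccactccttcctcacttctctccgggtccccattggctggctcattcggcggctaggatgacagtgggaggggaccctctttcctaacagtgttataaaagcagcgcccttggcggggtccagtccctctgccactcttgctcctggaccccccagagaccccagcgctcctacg
An E-box was found once before Des and 2 times each before Sgca and Smpx, and 65.5% of 33469 windows of this length held one. The MEF2 motif was found once, 101 bases before the start of Smpx, and 1.68% of the windows held it. Neither motif was found in the window before Vim, which held TATAAA 82 bases before the start, as did 12.9% of the windows at any position. Of the windows not shown, an E-box was found once before Sgcd and once in 1 of the 3 entries of Dmd, and none before Sgcb, so that the E-box was not particular to the 3 genes whose groups were apart. Motifs did not overlap each other in these 4 windows.

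Of the 8 genes, 3 had higher signals on every post-heartbeat array than on any pre-heartbeat array: Sgca, Des and Smpx. In whole tissue, more cells of a type and more RNA per cell cannot be told apart. In the fit without the block, limma called 0 of the 7 tested genes in either direction, where 0.124% of all tested probes were called higher and 0.0207% lower, and 3 of 7 had an unadjusted p under 0.05, where 7% of all tested probes did in either direction. The slide-blocked fit called 3 of 7 higher and 0 lower, against 1.09% and 0.42% of all tested probes. The methods' selection (at least 1.5 fold, and p under 0.05 without adjustment by the Tukey HSD test) took 3 of 7 as higher and 0 as lower, against 1.9% and 1.16% of all tested probes. Groups that did not overlap were found for 5.38% of the tested probes in the higher direction and for 6.17% in the lower direction. The median log2 fold change of the 7 genes was 0.36, where that of all tested probes was -0.03.

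**Figure D1:**
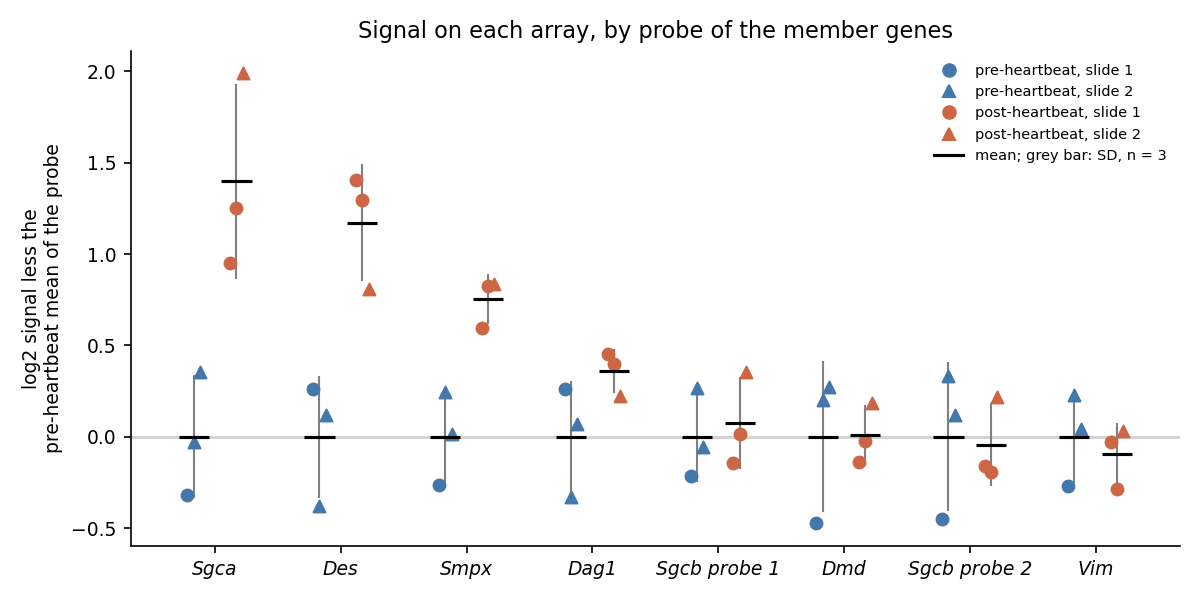
Log2 signal of each tested probe on each array, less the pre-heartbeat mean of that probe, in the pre-heartbeat (blue) and post-heartbeat (orange) groups. Circles and triangles are the slides, lines are means and grey bars SD (n = 3 per group); the post-heartbeat points lie above all pre-heartbeat points for Sgca, Des and Smpx, and the groups overlap for the other 5 probes.

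Desmin was read by 1 probe, at chr9:74645149-74645208 on the plus strand (rn4). Its log2 signal was 0.60, -0.04 and 0.46 in the pre-heartbeat samples and 1.75, 1.64 and 1.15 in the post-heartbeat samples. The lowest post-heartbeat sample was above the highest pre-heartbeat sample, and it was also the one on the slide with 2 pre-heartbeat samples. The mean was 0.34 ± 0.33 before and 1.51 ± 0.32 after heartbeat initiation (SD, n = 3), a difference of 2.25 fold (log2 1.17, SE 0.24, 95% interval 0.61 to 1.73, limma adjusted p = 0.165). The slide-blocked fit gave a log2 difference of 1.01 (SE 0.17, limma adjusted p = 0.0348). Within the slides, it was 1.09 and 0.94.
The adjusted p of the slide-blocked fit was 0.405 without pre-heartbeat replicate 1, 0.0916 without post-heartbeat replicate 1 and 0.32 without post-heartbeat replicate 3, so that the call was lost, while the difference was between 0.92 and 1.13 whichever of the 6 arrays was left out. Pre-heartbeat replicate 1 and post-heartbeat replicate 3 were each the only array of their group on a slide. Without either, the slide-blocked fit gave the difference within the other slide alone. An exact two-sided permutation test gave p = 0.1 for Des, and for Sgca and Smpx too, the smallest that 3 against 3 samples allow.

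Vimentin, at chr17:87851390-87851449 on the plus strand, did not separate the groups. Its log2 signal was 2.60, 3.101 and 2.92 in the pre-heartbeat samples and 2.84, 2.58 and 2.90 in the post-heartbeat samples. The log2 difference was -0.10 (limma adjusted p = 0.886), with a 95% interval of -0.52 to 0.33, or 0.70 to 1.26 as a ratio. The slide-blocked fit gave 0.0036. The log2 signal of Des less that of Vim was higher by 1.27 after heartbeat initiation, with groups that did not overlap. Its exact permutation p was 0.1, or 0.15 adjusted over the 3 pairs of genes compared, so that the unequal change did not pass the threshold and could not have done so in this design.

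**Figure D2:**
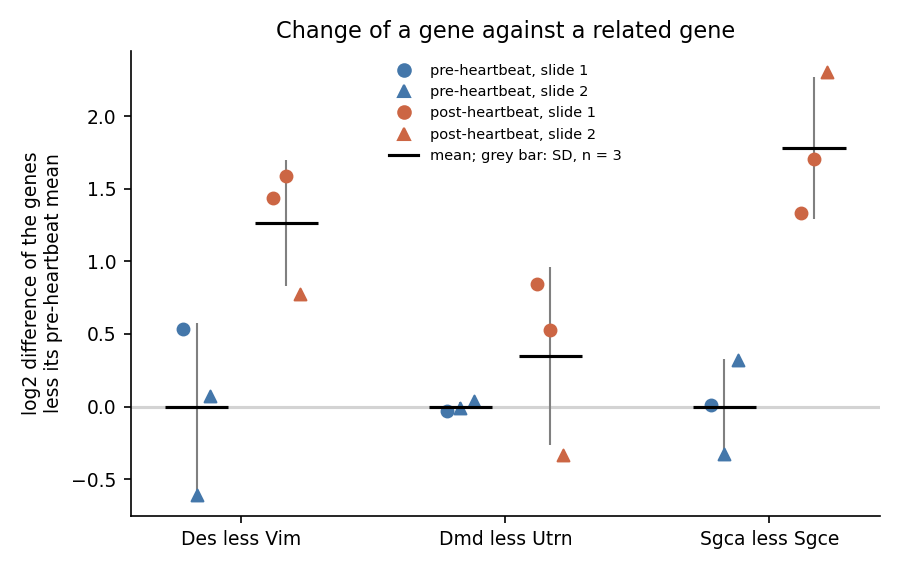
Log2 signal of a member gene less that of a related gene on each array, less the pre-heartbeat mean of this difference, in the pre-heartbeat (blue) and post-heartbeat (orange) groups. Circles and triangles are the slides, lines are means and grey bars SD (n = 3); the groups are apart for Des less Vim and Sgca less Sgce and overlap for Dmd less Utrn.

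The sarcoglycans were read by 4 probes in 3 genes, and they differed in level of detection and in change. Sgca encodes α-sarcoglycan, which is confined to striated muscle. Its probe, at chr10:83647348-83647407 on the minus strand, gave log2 signals of -5.33, -5.04 and -4.66 in the pre-heartbeat samples and -4.06, -3.76 and -3.02 in the post-heartbeat samples. Every post-heartbeat sample was above every pre-heartbeat sample, and the probe was well above background on all 6 arrays. The difference was 2.64 fold (log2 1.40, SE 0.30, 95% interval 0.69 to 2.11, limma adjusted p = 0.193), with means of -5.01 ± 0.34 and -3.61 ± 0.53 (SD, n = 3).
Blocking on the slide gave a log2 difference of 1.63 (SE 0.18, limma adjusted p = 0.0108), and within the slides it was 1.42 and 1.83. This call was lost without pre-heartbeat replicate 1 (adjusted p = 0.143) and without post-heartbeat replicate 3 (adjusted p = 0.231), at differences of 1.83 and 1.42. Each of these arrays was the only one of its group on its slide, so that the differences are those within the other slide alone. The size depended on the background correction, as normexp in place of the processed signal gave 0.67.

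Sgcb encodes β-sarcoglycan, which is also made outside muscle, and neither of its probes was called in either fit. The brighter probe, at chr14:36974627-36974686, gave log2 signals of -1.98, -1.50 and -1.82 in the pre-heartbeat samples and -1.91, -1.75 and -1.41 in the post-heartbeat samples. The log2 difference was 0.07 (95% interval -0.39 to 0.54, limma adjusted p = 0.919), and 0.20 in the slide-blocked fit. Within the slides, it was 0.15 and 0.24, with the groups apart on each slide. The other probe of the gene, at chr14:36972121-36972180, gave -0.04, 0.13 in the slide-blocked fit, and 0.28 and -0.01 within the slides. Over the 6 arrays, the groups overlapped for both probes.
Sgcd encodes δ-sarcoglycan, and its probe at chr10:32084708-32084767 was not well above background on any array, so that no difference is given. ε-sarcoglycan, encoded by Sgce and related to α-sarcoglycan, was read by a probe that was well above background on all 6 arrays. Its log2 difference was -0.38 (limma adjusted p = 0.816), and -0.28 in the slide-blocked fit. The log2 signal of Sgca less that of Sgce was higher by 1.78 after heartbeat initiation, with groups that did not overlap (exact permutation p = 0.1, adjusted 0.15), and by 1.07 under normexp. The probe of ζ-sarcoglycan (Sgcz) was well above background on the 3 post-heartbeat arrays alone, through which it passed the filter. Its groups overlapped, and its estimate was 1.81-fold higher after heartbeat initiation (limma adjusted p = 0.648, and 0.438 in the slide-blocked fit).

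Dystrophin was measured only by probe 3, the one annotated as Dp71a, and which form or forms of dystrophin it read is not known. Its log2 signal was -4.36, -3.68 and -3.61 in the pre-heartbeat samples and -4.03, -3.91 and -3.70 in the post-heartbeat samples. The groups overlapped, and the lowest value was on the slide that held 1 pre-heartbeat sample. The log2 difference was 0.01 (95% interval -0.53 to 0.55, limma adjusted p = 0.995), and 0.17 in the slide-blocked fit. Its sign turned under other scalings, with values of -0.03 under normexp and -0.02 under quantile normalization. Utrophin (Utrn), a protein much like dystrophin, had a log2 difference of -0.34 (limma adjusted p = 0.864), and of -0.01 in the slide-blocked fit. The log2 signal of Dmd less that of Utrn had overlapping groups and a difference of 0.35 (exact permutation p = 0.4). This value was 0.18 with the slide as a block, 0.23 under normexp, 0.098 without post-heartbeat replicate 1 and 0.69 without post-heartbeat replicate 3.

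Dystroglycan had overlapping groups, although its mean was higher after heartbeat initiation. Its probe at chr8:113470938-113470997 gave log2 signals of 3.56, 2.96 and 3.37 in the pre-heartbeat samples and 3.75, 3.69 and 3.52 in the post-heartbeat samples. Pre-heartbeat sample 1 was above post-heartbeat sample 3, which lay on the other slide. The log2 difference was 0.36 (95% interval -0.08 to 0.80, limma adjusted p = 0.852), and 0.26 in the slide-blocked fit. Within the slides, it was 0.16 and 0.36, with the groups apart on each slide. In the fit without the block, it was 0.19 without pre-heartbeat replicate 2, and reached 0.49 without pre-heartbeat replicate 1.

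Smpx, at chrX:58521141-58521200 on the minus strand, separated the groups with the least spread of the 3 genes in the post-heartbeat group. Its log2 signal was 0.59, 1.10 and 0.87 in the pre-heartbeat samples and 1.45, 1.68 and 1.69 in the post-heartbeat samples. The means were 0.85 ± 0.25 and 1.604 ± 0.14 (SD, n = 3). The difference was 1.69 fold (log2 0.75, SE 0.18, 95% interval 0.34 to 1.17, limma adjusted p = 0.236). The log2 difference of the slide-blocked fit was 0.84 (SE 0.15, limma adjusted p = 0.0445), and within the slides it was 0.97 and 0.71.
This call held without pre-heartbeat replicate 2 (adjusted p = 0.0415). It was lost without pre-heartbeat replicate 1 (0.477) or 3 (0.0748) and without post-heartbeat replicate 1 (0.0963), 2 (0.0952) or 3 (0.303), at differences of 0.71 to 0.97. The ends of this range, without pre-heartbeat replicate 1 and without post-heartbeat replicate 3, are each the difference within 1 slide alone.

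**Figure D3:**
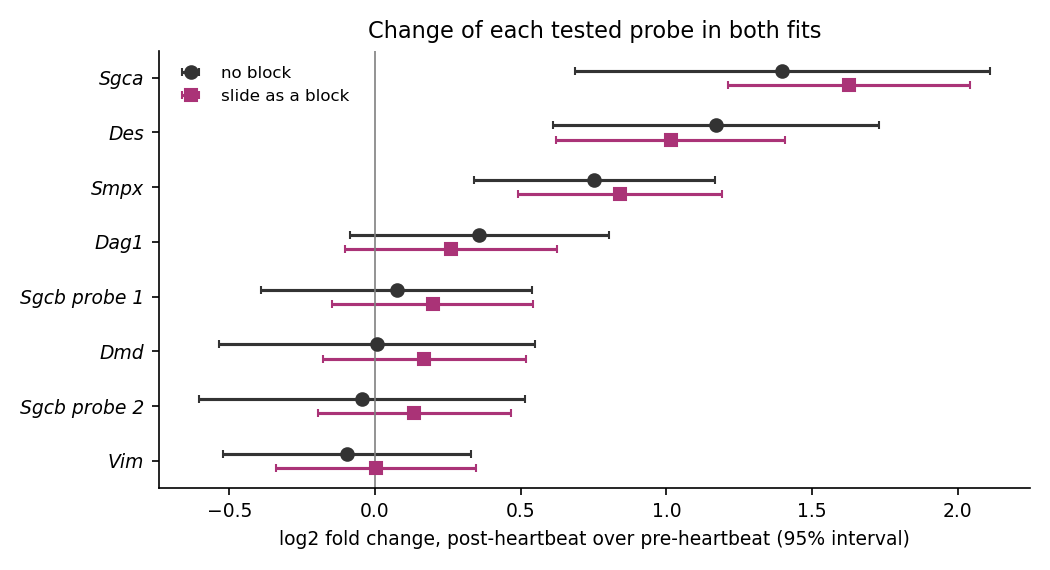
Log2 fold change of each tested probe, post-heartbeat over pre-heartbeat, with 95% intervals from limma without a block (black circles) and with the slide as a block (purple squares). The intervals of Sgca, Des and Smpx lie above 0 in both fits, and those of the other 5 probes include 0.

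Of 62 other genes of the same complexes, in 4 lists, 46 were tested. Without the block, limma called 0 of them, and 10 of 46 had an unadjusted p under 0.05, where 7% of all tested probes did. The slide-blocked fit called 3 of 46 higher (Cav3, Itgb1bp2 and Csrp3) and 0 lower, against 1.09% and 0.42% of all tested probes. Cav3, Sgcz and Ank2 passed the filter on low signals through the group where they were high alone, so that their p and their place in these counts follow in part from the filter. Synm and Nefm, also under 0.05 without adjustment, were well above background on 5 of the 6 arrays, so that they too passed the filter through 1 group alone. The methods' selection took 4 as higher, Cav3 among them, and 1 as lower, which was Ank2, against 1.9% and 1.16% of all tested probes. A filter on all 6 arrays kept 40 of the 46 genes, and the selection then took 3 as higher and 0 as lower. The median log2 fold change of the 46 genes was 0.16, and 0.081 in the slide-blocked fit.

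In the dystrophin-associated complex, 6 of 15 genes were tested, with a median of -0.04 (0.01 in the slide-blocked fit), and Cav3 was the 1 gene selected. Caveolin 3, the muscle form of caveolin, was not well above background on any pre-heartbeat array and was so on all post-heartbeat arrays. Its log2 signal was -7.02, -6.61 and -7.71 before and -5.04, -4.58 and -4.92 after heartbeat initiation. The estimate was 4.34-fold higher when each pre-heartbeat array is set at the higher of the signal of the probe and the dimmest signal well above background. On the signals as measured, the limma adjusted p was 0.0597, and 0.0174 in the slide-blocked fit. None of the 12 tested genes of dystroglycan glycosylation, which build the sugar chain that binds laminin, was called or selected. Their log2 fold changes ran from -0.27 to 0.40, with a median of 0.01.

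Among intermediate filaments and their linkers, 13 of 16 genes were tested and none was called or selected, with a median of 0.22, and of 0.083 in the slide-blocked fit. In the costamere list (proteins that tie the outermost sarcomeres to the membrane), 15 of 18 genes were tested, with a median of 0.18 (0.24 in the slide-blocked fit), and the selection took 3 as higher and 1 as lower. Itgb1bp2 (melusin, a muscle partner of β1 integrin) had a log2 difference of 1.12 (SE 0.20, limma adjusted p = 0.12), and of 1.26 in the slide-blocked fit (adjusted p = 0.0106).
Csrp3 (muscle LIM protein) had one of 0.80, and of 0.95 with the block (limma adjusted p = 0.0332). Flnc (filamin C) had one of 0.82, and of 0.73 with the block, where it was not called (limma adjusted p = 0.215). Ank2 (ankyrin B) was well above background on the pre-heartbeat arrays alone. Its estimate was 2.46-fold lower after heartbeat initiation, with the post-heartbeat arrays set as the pre-heartbeat arrays were for Cav3. It was called in neither fit (limma adjusted p = 0.332, and 0.0937 with the block).

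**Figure D4:**
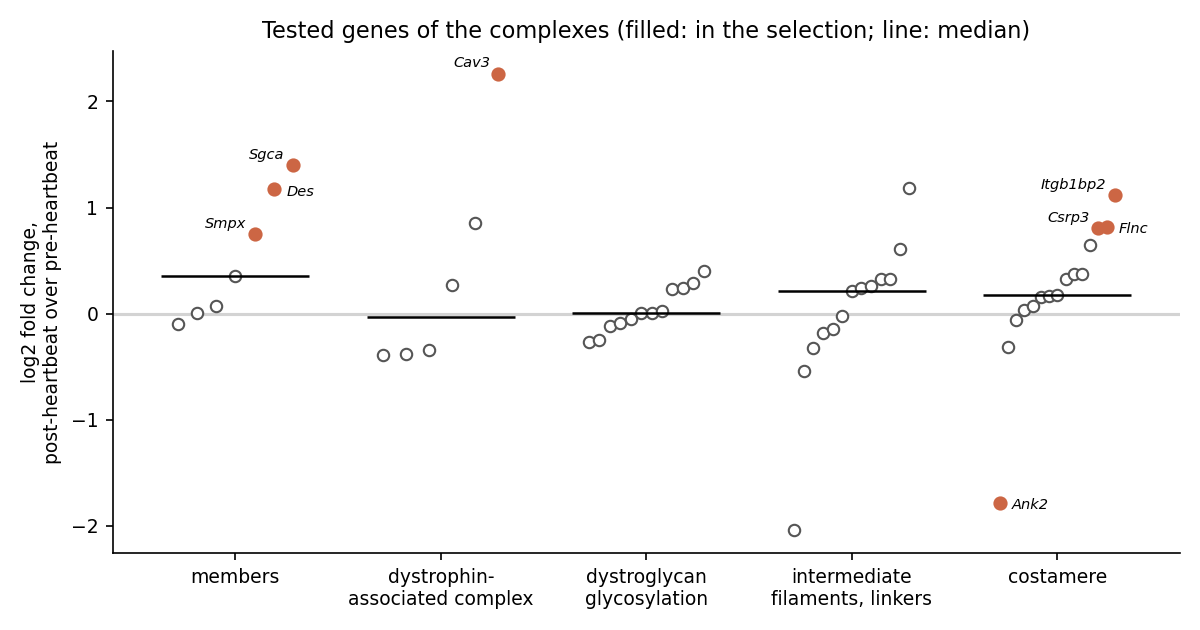
Log2 fold change (post-heartbeat over pre-heartbeat, limma without a block) of each tested gene among the members and in the 4 lists of other genes. Filled points are genes in the methods' selection, open points the other tested genes and lines the medians, which are 0.36 for the members and between -0.04 and 0.22 for the lists without the block.

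Smooth muscle and heart muscle markers were higher after heartbeat initiation, as Des, Sgca and Smpx were, and some other lists were lower in sum. In whole tissue, the lists do not show which cells held the RNA. The part of cell types in the differences of Des, Sgca and Smpx was not tested. All 4 smooth muscle markers had higher groups that did not overlap, as 5.38% of all tested probes did. The slide-blocked fit called all 4 higher, against 1.09% of all tested probes, and limma without the block called 0. The summed level of these 4 relative to the 75th percentile was 3.27 to 4.17 before and 6.63 to 8.41 after heartbeat initiation. For the heart muscle list, the sum was 349 to 595 before and 637 to 780 after, with 7 of 7 genes higher in mean. Of these, 2 were called with the block (Myh6 and Myh7) and 0 without it. Groups did not overlap for 3 of the 7, and they overlapped for Actc1 and Tnnt2 (log2 differences of 0.41 and 0.28), which gave much of the sum.
The sums of endothelial markers (5 genes tested) were 15.4 to 16.5 before and 10.6 to 12.4 after, those of yolk sac and visceral endoderm (5) 45.3 to 48.0 and 29.2 to 37.6, and those of neural ectoderm (3) 6.46 to 7.47 and 2.57 to 3.15. The neural sum was mostly the signal of Otx2, which was called lower in both fits, while Sox2 and Pou3f1 had log2 differences of -0.21 and 0.22. The endothelial sum was mostly the signal of Kdr (log2 difference -0.55), and Pecam1 and Cdh5 had -0.08 and -0.20. Kdr was the 1 gene of this list with groups that did not overlap. The yolk sac sum was mostly the signal of Ttr (-0.58), also the 1 gene of its list with groups apart, while Afp had 0.24. Mesenchyme and proepicardium (7 tested) ran from 5.46 to 6.07 and from 4.82 to 4.97. That sum was mostly the signal of Pdgfra (log2 difference -0.30), and 3 of the 7 genes were higher in mean. Tbx18, at 1.61 and well above background on 5 arrays, was the 1 gene of the list in the methods' selection. Paraxial mesoderm and skeletal muscle (5 tested) ran from 21.6 to 24.0 and from 25.2 to 26.5, with Myod1 not well above background on any array. Red blood cell markers (3 tested) ran from 1.598 to 3.05 and from 1.76 to 4.03, with Hbe1 and Gata1 not well above background on any array.

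Genes whose signal over the 6 arrays lay close to that of Des, by the root mean square of the distance between centered log2 profiles among 14487 other tested genes, were Kcng2 (0.053) and Ube2ql1 (0.098), the closest of all. For Sgca, whose difference was the largest among the 7 tested members without a block but below that of Des under normexp (0.67 against 1.12) and without pre-heartbeat replicate 1 (1.24 against 1.30) or post-heartbeat replicate 3 (1.10 against 1.35), the closest were Stc2 (0.22), Fam134b (0.22) and G0s2 (0.23). Many other genes lay closer than the members did. Among the members, the nearest to Des were Dag1 (0.42, rank 719 of the 14487 genes) and Smpx (0.46, rank 1209). The members nearest to Sgca were Smpx (0.45, rank 130) and Des (0.58, rank 386). Within the post-heartbeat group, sample 3 was the lowest for Des and the highest for Sgca.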

How the data were processed

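Total RNA of 3 pre-heartbeat and 3 post-heartbeat heart primordium samples was measured, 1 array each. The intensity values used were the processed signals that the authors deposited for each spot, made with Agilent Feature Extraction 10.7.3.1 (background-subtracted, no normalization between arrays). The authors also deposited ratios, made with GeneSpring by a 75th percentile shift and a baseline per probe, which served as an alternative. Control and outlier spots were left out, the 75th percentile of each array (1143 to 1694 intensity units) was subtracted on the log2 scale, and replicate spots were averaged. 0 spots were saturated. The number of arrays limits the precision.

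Groups were compared across all 19299 tested probes with limma 3.58.1 in R 4.3.3 and Benjamini-Hochberg adjustment (threshold 0.05), and by the selection of the methods. A gene was represented by its brightest tested probe. Single genes and pairs were compared by exact permutation over the 10 splits. Of the 11 transcripts given with the members' probes, 9 matched RefSeq (GRCr8). Probe positions are those of the array annotation (rn4). Named were all members, the genes of each list that were called or selected, and the 3 genes most like Des and the member with the largest change, of which some results are not reported here. The members and lists were chosen with earlier results of these data known. Alternatives were the slide or the replicate number as a block, normexp with an offset of 50, quantile normalization, the percentile over probes above background on all 6 arrays, the ratios, other filters, an intensity trend, the mean of a gene's probes, a fold threshold of 2, the limma p and an adjusted p in the selection, and leaving out each array. The slide block together with normexp, with quantile normalization or without an array was chosen after seeing the data. The procedure was tested on simulated data.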

Additional observations from a re-analysis of the deposited data

How the results depend on the processing

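The precision is limited by 3 arrays per group and by 2 slides with unequal shares of the groups. Both kinds of block raised the number of calls. The correlations of same-numbered samples were 0.648, -0.277 and 0.494, and for 1 of 3 numbers both samples correlated best with each other. The slide was not removed from these values. Same-numbered samples shared a slide for numbers 1 and 3 and not for number 2. The correlations therefore cannot tell whether the replicate numbers paired the samples. With the replicate block, 1 member gene (Sgca) was called higher, 2 other genes were called higher and 1 lower, and 110 probes were called higher and 56 lower. The causes of these changes were not tested. The 3 differences between paired genes kept their direction in each alternative run for them, but not their size, which was 0.96 to 1.53 for Des less Vim, 0.098 to 0.69 for Dmd less Utrn and 1.07 to 2.01 for Sgca less Sgce.

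With the slide as a block, 3 member genes and 3 other genes were called higher, 211 probes higher and 81 lower, and Vim moved to 0.0036. Against 24 probes called higher and 4 lower without a block, normexp gave 43 higher, quantile normalization 11, the ratios of the authors 10, the intensity trend 38 and 7, and no filter 1 and 0. No filter also gave a members' median of 0.22. The sign of Dmd turned under normexp (-0.027), quantile normalization (-0.024), the percentile over probes above background on all 6 arrays (-0.010) and the ratios (-0.012). With Benjamini-Hochberg adjustment of the methods' test, 0 member genes were selected. When 1 array was left out, probes called ran from 0 to 1 in each direction, the members' median from 0.21 to 0.49, Dmd from -0.23 to 0.14, Dag1 from 0.19 to 0.49, Sgcb from -0.064 to 0.21 and Vim from -0.23 to 0.018. Under the slide block, member genes called higher were 3 with normexp and 1 with quantile normalization, and from 0 to 3 when 1 array was left out, where Dmd ran from -0.052 to 0.39 and Vim from -0.10 to 0.11 (0.059 without pre-heartbeat replicate 2 and 0.043 without post-heartbeat replicate 2). The counts of 0 and the ends of the ranges of Dmd and Vim came without pre-heartbeat replicate 1 or post-heartbeat replicate 3, where the difference is that within 1 slide alone. Vim was 0.0024 with the slide block and normexp and 0.015 with the slide block and quantile normalization.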
